A study of Mus musculus with 8 samples.

Results

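The 10 genes of the kinetochore and the spindle checkpoint described here, Ndc80, Nuf2, Spc24, Spc25, Cenpa, Cenpe, Cenpf, Bub1, Bub1b, and Mad2l1, were followed in colonic epithelial cells of mice colonized with a mutant or the parental strain of Bacteroides thetaiotaomicron (B. theta). These 10 genes of 18193 were taken by symbol, and all 19 probe sets (of 45037) that the array annotation assigns to 1 of them alone were used, with no filter on their values. BTΔMAFF, written BTDMAFF in the sample names, lacks maffC and maffD, the SusC/SusD-like pair of the MAFF locus, and it was set against BTWT, the parental strain. Both groups were C57BL/6 male mice made receptive by metronidazole and ciprofloxacin (SPF-Abx mice). They received B. theta by gavage at 8 wk of age, and were sampled at 12 wk, 4 wk after colonization. Living EpCAM+ CD45- cells were sorted to a stated purity of 90 to 95%, and 1 array was hybridized for each of 4 BTΔMAFF- and 4 BTWT-colonized mice, a number that limits the precision. The mice were not germ-free, and other bacteria were present in both groups. In such mice the paper reports a different gut community with BTWT than with BTΔMAFF. The groups may therefore differ in more than the B. theta strain.

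The kinetochore is the protein assembly on each centromere to which spindle microtubules attach during mitosis. Its inner layer rests on nucleosomes that hold CENP-A, and its outer layer holds the NDC80 complex, which binds microtubules directly. Kinetochores without microtubules start the spindle checkpoint, a signal that delays anaphase until every chromosome is attached. In the colon, dividing cells lie mainly in the lower part of the crypt, so transcripts of these genes mark cycling stem and progenitor cells, while differentiated surface cells have left the cycle. In sorted cells from whole tissue, fewer cycling cells and less of such RNA per cycling cell cannot be told apart.

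Promoters of the members are shown because genes that act in mitosis often carry 2 short elements near the start, CCAAT and the cell cycle genes homology region (CHR), and because members are described together below. The RefSeq promoter table of GRCm38.p6 held 9 of the 10 genes, all but Spc24, each with 250 bases before and 50 bases after the start, 300 in all. The CHR was searched as TTTGAA or TTCGAA, and the other element as CCAAT, both on either strand. A CHR match was in 6 of 9 member promoters, against 19.2% of the 32851 promoters in the table, and a CCAAT match in 6 of 9, against 37.4%. No CHR match overlapped a CCAAT match. The 4 promoters below with both elements, and a CHR match within 30 bases after the start, are those of Spc25 (chr2:69206164-69206463, minus strand), Cenpa (chr5:30666636-30666935, plus strand), Cenpf (chr1:189688037-189688336, minus strand), and Bub1 (chr2:127831810-127832109, minus strand), and that of Nuf2 (chr1:169531415-169531714, minus strand), the gene whose 2 groups did not overlap, is set beside them with no match. Capitals mark the matches, read on the strand of the gene, so a match on the other strand appears as its reverse complement.
Spc25: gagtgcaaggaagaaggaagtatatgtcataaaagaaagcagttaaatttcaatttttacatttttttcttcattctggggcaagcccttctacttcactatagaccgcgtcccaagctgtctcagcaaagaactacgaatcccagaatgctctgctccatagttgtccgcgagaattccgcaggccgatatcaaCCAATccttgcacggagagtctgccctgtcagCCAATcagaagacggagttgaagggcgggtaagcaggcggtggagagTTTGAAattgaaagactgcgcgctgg
Cenpa: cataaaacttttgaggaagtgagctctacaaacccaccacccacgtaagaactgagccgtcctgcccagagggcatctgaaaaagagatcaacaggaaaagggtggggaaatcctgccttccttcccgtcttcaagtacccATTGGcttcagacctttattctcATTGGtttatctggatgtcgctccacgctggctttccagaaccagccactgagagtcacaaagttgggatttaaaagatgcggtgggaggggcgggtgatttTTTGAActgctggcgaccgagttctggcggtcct
Cenpf: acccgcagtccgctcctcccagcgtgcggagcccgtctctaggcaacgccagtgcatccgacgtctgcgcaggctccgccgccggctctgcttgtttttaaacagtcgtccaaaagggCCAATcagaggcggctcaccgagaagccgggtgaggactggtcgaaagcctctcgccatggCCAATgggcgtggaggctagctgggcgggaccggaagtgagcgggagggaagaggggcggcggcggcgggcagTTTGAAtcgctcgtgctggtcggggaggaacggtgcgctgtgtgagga
Bub1: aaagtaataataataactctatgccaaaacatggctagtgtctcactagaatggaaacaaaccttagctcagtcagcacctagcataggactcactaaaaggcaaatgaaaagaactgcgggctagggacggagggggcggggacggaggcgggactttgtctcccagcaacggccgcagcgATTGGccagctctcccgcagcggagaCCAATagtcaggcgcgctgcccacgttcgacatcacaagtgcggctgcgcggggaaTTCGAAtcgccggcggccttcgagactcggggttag
Nuf2: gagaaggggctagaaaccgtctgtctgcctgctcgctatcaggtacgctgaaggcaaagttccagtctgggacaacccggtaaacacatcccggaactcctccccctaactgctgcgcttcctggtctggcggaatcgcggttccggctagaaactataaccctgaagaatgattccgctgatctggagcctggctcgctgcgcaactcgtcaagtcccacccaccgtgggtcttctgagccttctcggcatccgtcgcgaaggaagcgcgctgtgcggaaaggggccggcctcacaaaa

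Relative to its start, the CHR match lay at base 25 in Spc25, 17 in Cenpa, 3 in Cenpf, and 15 in Bub1, and CCAAT matches lay at bases -55 and -23 in Spc25, -109 and -86 in Cenpa, -132 and -71 in Cenpf, and -68 and -42 in Bub1. Ndc80 held a CHR match at base 30 and no CCAAT match, Cenpe a CCAAT match at base -12 and no CHR match, and Bub1b both, with CHR matches at bases -188 and 41 and a CCAAT match at base -113. Mad2l1, like Nuf2, held neither element in this window. These are matches of letters, and binding was not measured. Among genes with both elements, the mean log2 difference, BTΔMAFF minus BTWT, was -0.20 for Cenpa, -0.25 for Cenpf, -0.18 for Bub1, and -0.15 for Bub1b. For Spc25 it was 0.12, a mean of probe sets of opposite sign. With neither element, Nuf2 had -0.75 and Mad2l1 -0.30. Whether the elements relate to the differences was not tested.

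The deposited values are on a log2 scale and had been centred by the authors, probe set by probe set, on the median over the 8 arrays. Thus 0 is the middle of the 8 mice, no level of 1 gene can be set against another, and detection above background cannot be judged. Differences are BTΔMAFF minus BTWT with a standard error (SE) from limma. No member probe set passed an adjusted p of 0.05, and neither did any of all probe sets tested (0%). The adjusted p was 0.828 for each member probe set except 1 of Cenpe (0.886) and 1 of Bub1b (0.835), and the counts below rest on unadjusted values from limma. At an unadjusted p under 0.05, 2 of 19 were lower in BTΔMAFF (Spc24 and 1 of Cenpa), against 2.24% of all probe sets, and 1 of 19 was higher (1 of Spc25), against 2.86%. After each array was centred on its own median, 1 of 19 was lower (Spc24, background 1.84%) and 0 of 19 were higher (background 2.91%), and by the methods' test 0 of 19 passed in either direction (background 1.67% lower and 2.15% higher). A two-sided exact permutation test over the mice, added after the values were seen, can reach no p below 0.0286 with 4 mice in each group, and with it Nuf2 alone passed 0.05 with no adjustment. Under this test only groups that do not overlap can pass, so it restates the lack of overlap given below. Over all probe sets, 1.27% had every BTΔMAFF array below every BTWT array, and 1.56% every one above. The limma count of lower probe sets fell to 0 without BTWT replicate 1 (background 1.9%), BTΔMAFF replicate 2 (2.02%), or BTΔMAFF replicate 3 (1.73%). It fell to 1 without BTWT replicate 2 (background 2.5%), BTWT replicate 3 (2.12%), or BTΔMAFF replicate 1 (2.88%).

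Direction was more uniform than the tests. The difference was below 0 for 18 of 19 member probe sets, all but 1 of Spc25, against 69.9% of all probe sets. With each array centred, 17 of 19 were below 0, against 51.1%, and Cenpf probe set 1452334_at was the one that changed sign. The median difference over the 19 member probe sets was -0.15, against -0.018 over all probe sets. In the order of the gene means, Spc24 had -1.05, Nuf2 -0.75, Mad2l1 -0.30, Cenpf -0.25, Cenpa -0.20, Bub1 -0.18, Bub1b -0.15, Cenpe -0.095, Ndc80 -0.037, and Spc25 0.12. Apart from the 3 probe sets named above, no member passed the unadjusted threshold, and none at all passed the adjusted one. Differences between neighbours in this order were not tested, so the order is a description only.

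**Figure D1:**
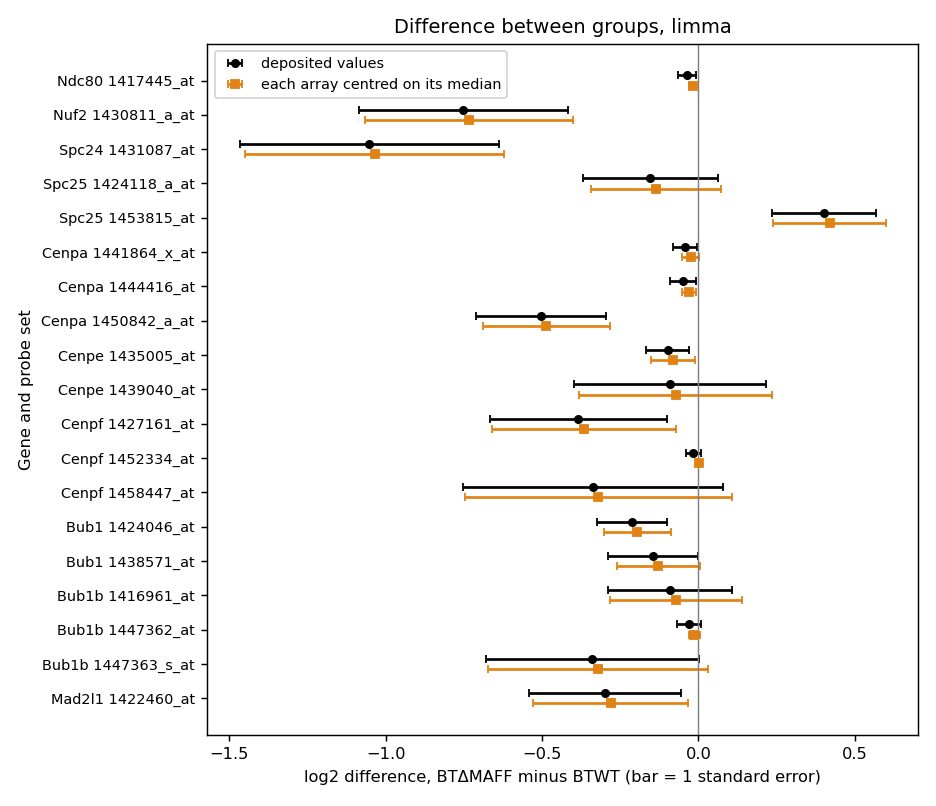
The log2 difference, BTΔMAFF minus BTWT, of each of the 19 member probe sets (rows) on the horizontal axis, from the deposited values (black) and with each array centred on its median (orange), with 1 SE from limma as bars. Of the 19 black points 18 lie below 0, with Spc24 farthest at -1.05, and 1 probe set of Spc25 lies above 0 at 0.40.

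The NDC80 complex is a rod of 4 proteins. Ndc80 and Nuf2 form the end that grips the microtubule, and Spc24 and Spc25 the end that anchors the rod to the inner kinetochore. Spc24 (1431087_at) had the largest member difference. In the order of replicates 1 to 4, its values were -0.35, -1.61, -1.43, and 0.079 in BTΔMAFF, against 0.73, 0.16, 0.075, and -0.075 in BTWT. Replicates 2 and 3 of BTΔMAFF lay far below all other mice, and BTΔMAFF replicate 4 lay within the BTWT range, so the groups overlapped. The mean was -0.83 ± 0.82 in BTΔMAFF and 0.22 ± 0.35 in BTWT (SD, n = 4 each), a difference of -1.05 (SE 0.41), 2.07-fold lower. The p was 0.0385 from limma and 0.0857 from a two-sided exact permutation test. Spc24 was the sole member over 2-fold lower at this threshold, as were 0.262% of all probe sets. It passed the unadjusted threshold in 2 of the 8 fits without 1 array, those without BTΔMAFF replicate 1 or 4, with differences of -1.36 to -0.79 over the 8 fits.

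Nuf2 (1430811_a_at) was the one member whose groups did not overlap, as was true in this direction for 1.27% of all probe sets. Its values were -0.38, -0.095, -0.27, and -0.041 in BTΔMAFF, against 0.44, 1.58, 0.16, and 0.041 in BTWT. The 2 groups were separated by a gap between BTΔMAFF replicate 4 and BTWT replicate 4 on either side of 0, and BTWT replicate 2 stood above all other mice. The mean was -0.20 ± 0.16 in BTΔMAFF and 0.56 ± 0.70 in BTWT (SD, n = 4 each), a difference of -0.75 (SE 0.33). The p was 0.0589 from limma and 0.0286, the smallest possible, from a two-sided exact permutation test. Without BTWT replicate 2 the difference was -0.41 and passed limma's unadjusted threshold, as it did without BTWT replicate 3 or 4, in 3 of the 8 fits without 1 array.

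Spc25, the partner of Spc24, was the exception among the 10 genes. Its probe set 1453815_at had 0.16, 0.71, 0.46, and -0.060 in BTΔMAFF, against -0.072, 0.014, -0.26, and -0.014 in BTWT. The first 3 BTΔMAFF mice lay above all BTWT mice, and BTΔMAFF replicate 4 lay within the BTWT range. The difference was 0.40 (SE 0.17), with p = 0.0467 from limma and 0.0857 from a two-sided exact permutation test, and 0.42 with each array centred, which no longer passed. Of the 8 fits without 1 array, the one without BTΔMAFF replicate 4 passed, with differences of 0.27 to 0.53 over the 8 fits. The other probe set of Spc25, 1424118_a_at, had the opposite sign, with -0.46, 0.00075, -0.47, and 0.17 in BTΔMAFF, against 0.34, 0.00059, -0.00059, and -0.47 in BTWT, and a difference of -0.15 (SE 0.22), or -0.030 without BTWT replicate 1. The 2 probe sets of this gene thus disagreed, and no single direction can be given for Spc25.

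Ndc80 itself (1417445_at), which gives the complex its name, varied little over the mice. Its values were -0.0087, -0.011, -0.061, and 0.034 in BTΔMAFF, against 0.053, 0.048, 0.0046, and -0.0046 in BTWT, with a difference of -0.037 (SE 0.029). All 8 values lay within 0.1 of 0. The SD of this probe set over the 8 arrays was at the 25th percentile of all probe sets, whereas Spc24 was at the 98.4th and Nuf2 at the 95.3rd. As a mean over the 4 genes, the complex stood at -0.22, -0.34, -0.44, and 0.032 in BTΔMAFF, against 0.34, 0.45, 0.027, and -0.071 in BTWT.

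**Figure D2:**
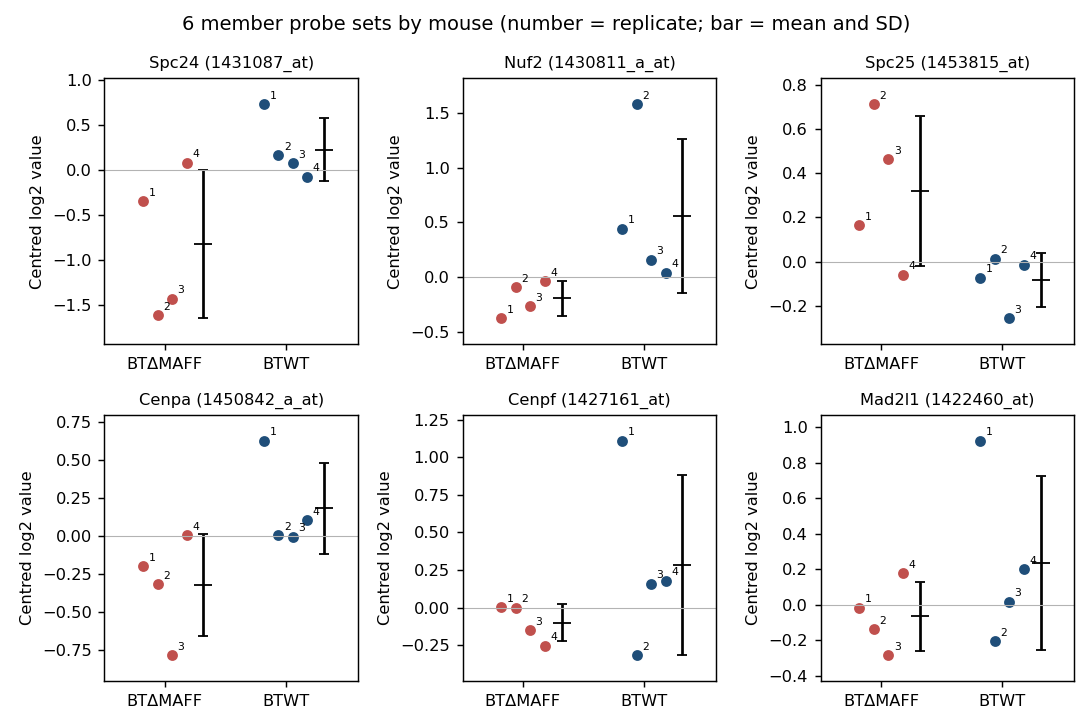
Centred log2 values of 6 member probe sets, with 1 point for each mouse, BTΔMAFF on the left and BTWT on the right of each panel, and the group mean ± SD as a bar beside the points. In Nuf2 every BTΔMAFF mouse lies below every BTWT mouse, and in Spc24 BTΔMAFF replicates 2 and 3 lie at -1.61 and -1.43.

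Of the centromere proteins, Cenpa encodes the histone H3 variant CENP-A that marks the centromere, Cenpe a kinesin that carries chromosomes along microtubules, and Cenpf a large coiled-coil protein that appears in late interphase and binds kinetochores in mitosis. Cenpa probe set 1450842_a_at had -0.20, -0.32, -0.78, and 0.0061 in BTΔMAFF, against 0.62, 0.0035, -0.0035, and 0.10 in BTWT. BTΔMAFF replicate 4 alone kept the groups from separating, and it exceeded 2 BTWT mice by less than 0.01. The mean was -0.32 ± 0.33 in BTΔMAFF and 0.18 ± 0.30 in BTWT (SD, n = 4 each), a difference of -0.50 (SE 0.21), 1.42-fold lower. The p was 0.0457 from limma and 0.0857 from a two-sided exact permutation test. With each array centred on its median the groups did not overlap, as in 1.15% of all probe sets, and the difference of -0.49 no longer passed limma's threshold. Of the 8 fits without 1 array, the one without BTΔMAFF replicate 4 passed, with differences of -0.61 to -0.35 over the 8 fits. The 2 other probe sets of Cenpa had smaller differences of the same sign, -0.042 for 1441864_x_at (SE 0.039) and -0.050 for 1444416_at (SE 0.040).

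Cenpf was measured by 3 probe sets, none past the threshold. The probe set 1427161_at had 1.2e-05, -1.2e-05, -0.15, and -0.25 in BTΔMAFF, against 1.11, -0.32, 0.16, and 0.18 in BTWT, a difference of -0.38 (SE 0.28). BTWT replicate 1 lay far above the other 7 mice, and without it the difference was -0.11, against -0.58 without BTWT replicate 2. The probe set 1458447_at ranged more widely within BTWT than between the groups, with -0.0042, -0.31, 0.0042, and 0.28 in BTΔMAFF, against 0.90, -0.24, 1.22, and -0.56 in BTWT, and a difference of -0.34 (SE 0.42). That difference was -0.039 without BTWT replicate 3 and -0.64 without BTWT replicate 4. The third, 1452334_at, had one of the smallest spreads on the array (4.96th percentile of SD), and its difference of -0.016 (SE 0.023) was 0.0018 with each array centred on its median.

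Cenpe had little difference in either probe set. The probe set 1439040_at had 0.54, -0.19, -0.41, and 0.51 in BTΔMAFF, against 0.88, -0.0054, 0.0054, and -0.073 in BTWT, a difference of -0.091 (SE 0.31) within groups that overlapped throughout. Its sign turned when BTWT replicate 1 was left out (0.13), or BTΔMAFF replicate 2 (0.011), or BTΔMAFF replicate 3 (0.083). The other, 1435005_at, differed by -0.099 (SE 0.068), with BTWT replicate 3 at 0.29 and the other 7 mice between -0.039 and 0.047, and by -0.030 without BTWT replicate 3.

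The checkpoint members are Bub1, a kinase that recruits other checkpoint proteins to kinetochores, Bub1b, which encodes BUBR1, and Mad2l1, which encodes MAD2. BUBR1 and MAD2 bind CDC20 within the mitotic checkpoint complex and so hold the anaphase-promoting complex in check. None of their 6 probe sets passed the threshold. Bub1 probe set 1424046_at had -0.022, -0.086, -0.027, and 0.022 in BTΔMAFF, against 0.50, 0.21, 0.061, and -0.034 in BTWT. BTWT replicates 1, 2, and 3 lay above all BTΔMAFF mice, and BTWT replicate 4 lay below 3 of them. The difference was -0.21 (SE 0.11), with p = 0.0962 from limma and 0.114 from a two-sided exact permutation test, and over the 8 fits without 1 array it ran from -0.29 without BTWT replicate 4, which passed limma's threshold, to -0.11 without BTWT replicate 1. The second probe set of Bub1, 1438571_at, differed by -0.15 (SE 0.14), with its highest values at 0.26 in BTΔMAFF replicate 4 and 0.54 in BTWT replicate 2, and by -0.018 without BTWT replicate 2.

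Mad2l1 (1422460_at) had -0.016, -0.14, -0.28, and 0.18 in BTΔMAFF, against 0.92, -0.21, 0.016, and 0.20 in BTWT, a difference of -0.30 (SE 0.24). This difference was carried by BTWT replicate 1, since it was -0.070 without that mouse, and -0.45 without BTWT replicate 2. Bub1b showed the same feature in 1447363_s_at, with -0.056, 0.38, 0.056, and -0.17 in BTΔMAFF, against 1.33, -0.14, 0.51, and -0.14 in BTWT, where the difference of -0.34 (SE 0.34) became -0.026 without BTWT replicate 1. The 2 other probe sets of Bub1b differed by -0.090 (1416961_at, SE 0.20) and -0.031 (1447362_at, SE 0.038). The sign of 1416961_at turned without BTWT replicate 3 (0.041) or BTΔMAFF replicate 4 (0.025).

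**Figure D3:**
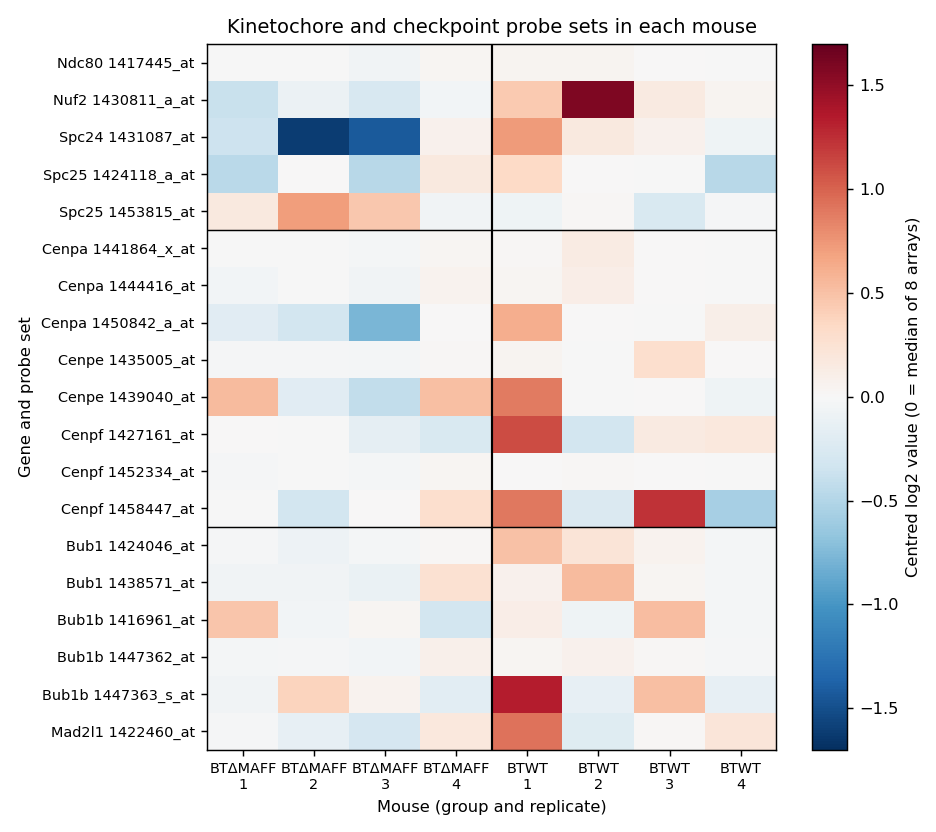
Centred log2 values of the 19 member probe sets (rows, by complex) in each mouse (columns, BTΔMAFF 1 to 4 on the left and BTWT 1 to 4 on the right). Blue is below and red above the middle of the 8 mice, with BTΔMAFF replicates 2 and 3 darkest blue for Spc24 (-1.61 and -1.43) and BTWT replicate 2 darkest red for Nuf2 (1.58).

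By mouse, the mean over the 10 genes was -0.064, -0.18, -0.27, and 0.063 in BTΔMAFF, against 0.44, 0.18, 0.11, and -0.031 in BTWT. BTΔMAFF replicate 4 and BTWT replicate 4 lay on the side of the other group, and the other 6 mice were separated by group. The mean was -0.11 ± 0.14 in BTΔMAFF and 0.18 ± 0.20 in BTWT (SD, n = 4 each), a difference of -0.29, given with no test because the genes were chosen with earlier results of these data known. It lay between -0.36 (without BTWT replicate 4) and -0.20 (without BTWT replicate 1) when single arrays were left out, and was -0.20 without Spc24 and -0.24 without Nuf2. Ordered by role, the difference was -0.43 for the NDC80 complex, -0.18 for the centromere proteins, and -0.21 for the checkpoint genes. The number of genes above 0 was 2, 2, 1, and 8 in BTΔMAFF replicates 1 to 4, against 10, 6, 9, and 3 in BTWT replicates 1 to 4. The matching share of all probe sets was not computed, so these counts have no background beside them. The median of all probe sets was itself above 0 in BTΔMAFF replicate 4 and BTWT replicates 1 to 3, and below 0 on the other arrays. BTWT replicate 1 was the highest mouse in 9 of 19 probe sets, against 8.28% of all probe sets, and still in 9 of 19 with each array centred, against 8.05%. BTΔMAFF replicate 3 was the lowest in 10 of 19, against 46.8% of all probe sets, and in 7 of 19 with each array centred, against 23.5%.

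The arrays as a whole showed part of the same order. The median over all probe sets was -0.014, -0.013, -0.030, and 0.041 on the BTΔMAFF arrays, against 0.020, 0.038, 0.0060, and -0.0072 on the BTWT arrays, and BTΔMAFF replicate 4 and BTWT replicate 4 again lay on the side of the other group. Probe sets of small spread followed this median. With a limit of 0.1 chosen after the values were seen, 4 of 19 member probe sets stayed within that distance of their array's median on all 8 arrays (Ndc80 1417445_at, Cenpa 1444416_at, Cenpf 1452334_at, and Bub1b 1447362_at), as did 38.2% of all probe sets. The other 15, from 9 genes, held 14 with a difference below 0, both before and after each array was centred. The matching share over all probe sets beyond the limit was not computed, so this count has no background beside it. BTWT replicate 2 and BTΔMAFF replicate 4 stood apart from the other 6 arrays along the leading principal component (29.4% of variance). With both left out, 4 of 19 member probe sets were lower at an unadjusted p under 0.05 in limma (background 6.93%) and 11 of 19 did not overlap (background 40.3%). With BTΔMAFF replicate 4 alone left out, 9 of 19 did not overlap, near the 39.1% of all probe sets.

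**Figure D4:**
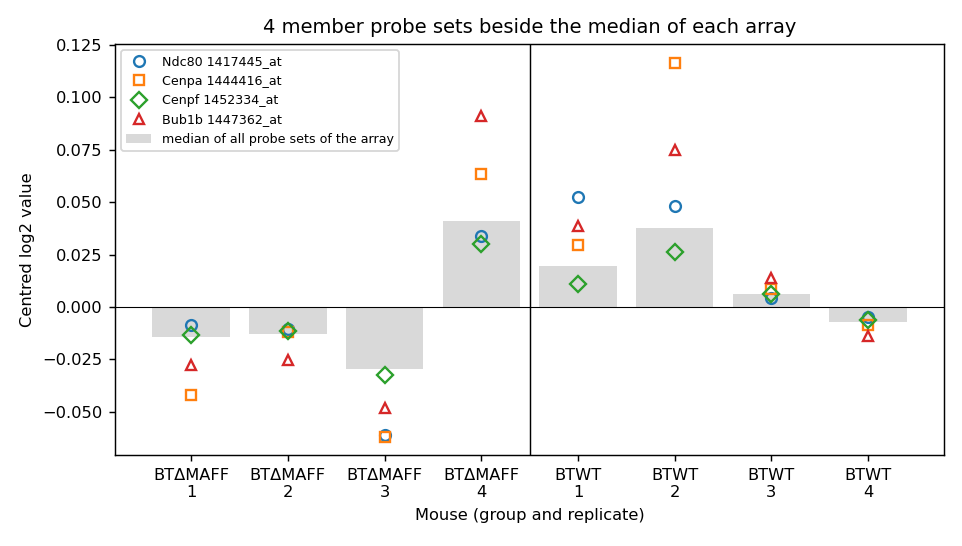
Centred log2 values (vertical axis) of the 4 member probe sets that stayed within 0.1 of their array's median, as symbols, beside the median of all probe sets of that array, as grey bars from 0, for each mouse (horizontal axis). The bars run from -0.030 in BTΔMAFF replicate 3 to 0.041 in BTΔMAFF replicate 4, and the symbols lie on the same side of 0 as the bar on all 8 arrays.

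The members varied together to unequal degrees. Over the 8 arrays, the Pearson correlation of a gene with the mean of the other 9 was 0.93 for Cenpa, 0.89 for Ndc80, 0.81 for Bub1, 0.78 for Spc24, 0.73 for Cenpe, 0.69 for Mad2l1, 0.61 for Cenpf, 0.48 for Bub1b, 0.35 for Nuf2, and -0.079 for Spc25. After the group means were subtracted, it was 0.87 for Cenpa and -0.048 for Nuf2. For Nuf2, BTWT replicate 2 stood at 1.58, far above the BTWT mean of 0.56. The correlation was not computed without that mouse, so its low value may rest on it. All these correlations describe 8 arrays that share their array medians and centring.

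Patterns like that of the 10 genes were looked for among probe sets of genes other than the members and the kinetochore list described below. Over the 8 arrays, the 5 of these genes with the highest Pearson correlation with the mean of the members were Rpl7 (0.99), Dnaaf2 (0.98), Eif3l (0.97), Nvl (0.97), and Tbc1d24 (0.97), and 175 of the 34838 single-gene probe sets compared had a correlation over 0.9. Differences were small for Rpl7 (-0.10), Eif3l (-0.079), and Nvl (-0.052), and larger for Dnaaf2 (-0.44) and Tbc1d24 (-0.70). Each is from the 1 probe set chosen for the gene. Rpl7 encodes a protein of the large ribosomal subunit and Eif3l a subunit of a translation initiation factor. No shared role of the 5 genes was tested. Like those above, these correlations describe arrays that share their medians and centring, and they were not computed with each array centred on its median. Mki67, which encodes the proliferation marker Ki-67, had a correlation of 0.86, and 359 probe sets had a higher one. Its values were 0.016, -0.42, -1.01, and -0.091 in BTΔMAFF, against 0.44, 0.15, 0.33, and -0.016 in BTWT, a difference of -0.60 (SE 0.23), with p = 0.0364 from limma and 0.0571 from a two-sided exact permutation test. As in Spc24, BTΔMAFF replicates 2 and 3 were the lowest mice.

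Other kinetochore genes were taken from a list, of which 41 genes were measured by 88 probe sets. At an unadjusted p under 0.05, 2 of the 88 were lower in BTΔMAFF (1 of Cenpc1 and 1 of Mis18a) and 0 were higher, against a background of 2.24% and 2.86%, and 0 passed the adjusted threshold. The count of lower probe sets on the list was 10 without BTΔMAFF replicate 4 (background 5.94% in that fit), 5 without BTΔMAFF replicate 1 (background 2.88%), 4 without BTWT replicate 4 (background 2.08%), 1 without BTΔMAFF replicate 3 (background 1.73%) or BTWT replicate 3 (background 2.12%), and 0 without BTWT replicate 1 (background 1.90%). The difference was below 0 for 76 of 88, with a median of -0.039, against 69.9% of all probe sets, and with each array centred for 65 of 88, against 51.1%. By mouse, the mean of the 41 genes ranged from -0.064 to 0.018 in BTΔMAFF and from -0.013 to 0.23 in BTWT, a difference of -0.11, and BTWT replicate 1 was again the highest mouse.

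In the constitutive centromere network, the inner layer that stays on the centromere through the cycle, 29 of 32 probe sets were below 0, or 25 with each array centred. Over all probe sets the shares were 69.9% and 51.1%, here and for the loading genes below. Of the 32 probe sets, 1 was lower, against 2.24% of all probe sets. It was Cenpc1, which encodes the protein that links CENP-A nucleosomes to the outer kinetochore, with -0.16, 0.082, -0.33, and -0.60 in BTΔMAFF, against 0.20, 0.49, -0.065, and 0.065 in BTWT (1420441_at). The difference was -0.42 (SE 0.17), with p = 0.0442 from limma and 0.0857 from a two-sided exact permutation test. Cenpw differed by -0.59 (SE 0.40) in 1 probe set and -0.035 in its other, and Cenpq by -0.30 (SE 0.22) in its sole probe set, none past the threshold. Among the genes that load CENP-A onto centromeres, 1 of 3 probe sets was lower, and 3 were below 0 with or without centring. The lower one, Mis18a, had 0.035, -0.12, -0.80, and -0.37 in BTΔMAFF, against 0.29, 0.086, 0.34, and -0.035 in BTWT (1453314_x_at). The difference was -0.48 (SE 0.19), with p = 0.0369 from limma and 0.0571 from a two-sided exact permutation test. Its other probe set differed by -0.29 (SE 0.31). The groups of Cenpc1 and Mis18a overlapped. With each array centred, Mis18a passed limma's threshold and Cenpc1 did not. Oip5, another loading factor, differed by -0.29 (SE 0.23).

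None of the other probe sets on the list passed the threshold. In the MIS12 and KNL1 complexes, the platform on which NDC80 sits, 7 of 15 were below 0, or 5 with each array centred. Over all probe sets the shares were 69.9% and 51.1%, which hold for the counts below as well. Knl1 differed by -0.19 and -0.24 in its 2 probe sets, and Nsl1 by -0.080 and -0.011. Zwint, whose product binds KNL1, had 7 probe sets that ran from -0.22 (SE 0.34) to 0.39 (SE 0.27), 5 of them above 0. Among further checkpoint genes 22 of 23 were below 0, or 20 with each array centred. Trip13, an ATPase that remodels MAD2, differed by -0.76 (SE 0.34), -0.26 (SE 0.14), and -0.036 (SE 0.045) in its 3 probe sets. Cdc20, the activator of the anaphase-promoting complex, differed by -0.51 (SE 0.26), -0.090 (SE 0.060), and -0.052 (SE 0.053), and Ttk, the kinase that starts checkpoint signaling, by -0.30 (SE 0.14) and -0.024 (SE 0.037). In the outer kinetochore and among the genes that protect centromeric cohesion, 15 of 15 were below 0, or 12 with each array centred. Ska1 differed by -0.24 (SE 0.20), -0.082 (SE 0.097), and -0.018 (SE 0.028), Ska3 by -0.15 (SE 0.079), and Sgo2a by -0.23 (SE 0.12).

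Centred values cannot show whether the sorted cells held the defining markers of epithelium, and show only how these differed between the groups. Epcam differed by 0.037 (SE 0.037) and -0.10 (SE 0.23) in its 2 probe sets and Ptprc, which encodes CD45, by 0.0067 (SE 0.031) and -0.023 (SE 0.027). The 14 probe sets of 10 epithelial markers held 3 that were higher in BTΔMAFF at an unadjusted p under 0.05 and 0 that were lower, against 2.86% higher and 2.24% lower of all probe sets, which hold for the marker counts below as well. The list mean did not overlap between the groups, at 0.036 to 0.063 in BTΔMAFF and -0.067 to -0.031 in BTWT. Among 19 probe sets of 9 crypt stem cell markers 3 were lower and 0 higher, with means of -0.16 to 0.24 in BTΔMAFF and -0.054 to 0.33 in BTWT, where replicate 1 was the highest mouse of each group. Of 12 probe sets of 8 surface colonocyte markers 1 was lower and 4 were higher, with means of -0.097 to 0.13 in BTΔMAFF and -0.12 to 0.093 in BTWT. Of 12 probe sets of 8 goblet cell markers 2 were lower and 4 higher, with means of -0.049 to 0.22 in BTΔMAFF and -0.23 to 0.16 in BTWT. No probe set of the T cell (11), B and plasma cell (18), myeloid (10), leukocyte (13), fibroblast (16), or endothelial (7) markers passed in either direction.

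The fibroblast list mean was 0.16 ± 0.24 in BTΔMAFF and -0.11 ± 0.20 in BTWT (SD, n = 4 each), and the leukocyte list mean 0.049 ± 0.097 in BTΔMAFF and 0.044 ± 0.074 in BTWT (SD, n = 4 each). As a sign of RNA quality, the 3-prime minus 5-prime difference of the control probe sets was 0.0054 ± 0.16 in BTΔMAFF and -0.11 ± 0.14 in BTWT for Gapdh (SD, n = 4 each, two-sided exact permutation test, p = 0.314), and 0.034 ± 0.051 in BTΔMAFF and -0.036 ± 0.020 in BTWT for beta-actin (two-sided exact permutation test, p = 0.0857). The part of cell composition and of RNA quality in the member differences was not tested.

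**Figure D5:**
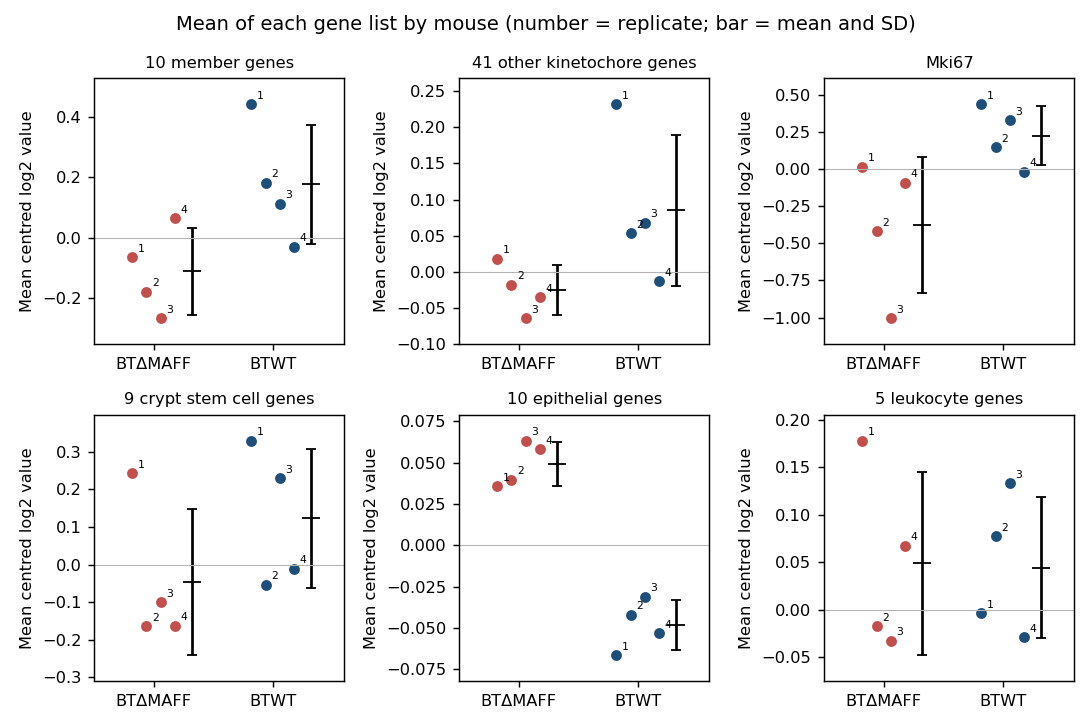
Mean centred log2 value (vertical axes, with a scale of their own in each panel) of the 10 members, the 41 other kinetochore genes, Mki67, and the crypt stem cell, epithelial, and leukocyte markers, with 1 point for each mouse, BTΔMAFF on the left and BTWT on the right, and the group mean ± SD as a bar. The epithelial markers are the panel whose groups do not overlap, and BTWT replicate 1 is the highest mouse for the 10 members at 0.44.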

How the data were processed

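Gene expression of sorted colonic epithelial cells was measured on Affymetrix mouse genome arrays after RNA amplification, with 4 BTΔMAFF- and 4 BTWT-colonized mice, grouped by the sample names. For 45101 probe sets the authors deposited log2 values centred on the median over the 8 arrays, which leaves no level, so weak and strong probe sets weigh alike. GeneSpring 12.5 stands in the methods, and Affymetrix Expression Console, without a version, in the processing notes of the submitters. How background was corrected and signals were normalized is not stated in the sources used here.

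The 64 control probe sets were left out. The other 45037 entered a model of BTΔMAFF minus BTWT with no covariate (lmFit and eBayes of limma 3.58.1, R 4.3.3), with Benjamini-Hochberg adjustment over all of them. One gene was annotated for 34945 probe sets, several for 932, and none for 9160, and 34741 matched a RefSeq table of GRCm38.p6 by gene ID, which changed 0 symbols. A gene is the mean of its single-gene probe sets. Exact permutation tests (two-sided) were used for control probe sets and single named probe sets. The procedure was tested on simulated data.

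The members and lists were chosen with earlier results of these data known. Named are all 10 members with every probe set, Mki67, Epcam, and Ptprc, up to 3 genes of smallest p from each kinetochore list, and the 5 genes outside these lists most like the mean of the members.

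Alternatives were array weights, quantile normalization, subtracting the median of each array, a block for the replicate number, leaving out each array or both arrays that stood apart, the upper part of probe sets by SD (in place of a filter on dim probe sets, which centred values do not allow), a robust prior, the methods' unpaired test, an exact permutation test (added after the values were seen), other choices of probe set, and leaving out each member.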

Additional observations from a re-analysis of the deposited data

Results flagged for a closer look

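Among 78 groups of 4 mice, over the named probe sets, 7 held 1 mouse far from the other 3, where chance flags about 1 in 20 groups, here 3.9. In BTΔMAFF replicate 4 these were Bub1 1438571_at (0.256), Bub1b 1447362_at (0.091), and Ska1 1450496_a_at (0.372), all high on the centred log2 scale. That mouse also had the highest array median (0.041). In BTWT replicate 1 they were Cenpa 1450842_a_at (0.624), Cenpe 1439040_at (0.877), and Cenpq 1423620_at (0.956), all high, and in BTWT replicate 2 Cenpa 1441864_x_at (0.145), also high.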

How the results depend on the processing

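The mean difference over the members kept its sign under every alternative run. For the replicate block, the robust prior, and the methods' test this was fixed in advance. They leave the mean difference itself unchanged, at -0.29. Over all 10 genes it ran from -0.36 to -0.20 when single arrays were left out. It was -0.37 after a filter on SD, which left 9 genes without Ndc80, and -0.18 without probe sets ending in _s_at, _x_at or _a_at, which left 9 genes without Nuf2. The count of members past the adjusted threshold was 0 in every fit without 1 array. Without single arrays, 0 to 2 member probe sets were lower in BTΔMAFF past the unadjusted threshold (background 1.73% to 5.94%). From 0 to 1 were higher (background 2.21% to 4.05%), and 1 to 9 were lower with no overlap (background 1.73% to 39.1%). In the same fits, with the same backgrounds for lower and higher, the kinetochore list held 0 to 10 lower and 0 to 2 higher. The highest of these list counts, and the 9 members without overlap, came without BTΔMAFF replicate 4. Member probe sets lower in BTΔMAFF numbered 1 with arrays centred (background 1.84%), 6 with array weights (16.5%), and 3 after the SD filter (3.42%). They numbered 4 without both arrays that stood apart (6.93%) and 0 by the methods' test (1.67%). The count of higher members was 0 with arrays centred (background 2.91%), with the replicate block (3.13%), after the SD filter (4.51%), and by the methods' test (2.15%). Member probe sets without overlap numbered 2 with arrays centred (background 1.15%) and 11 without both arrays (40.3%). In the kinetochore list of 88 probe sets, lower ones numbered 1 with arrays centred (background 1.84%), 22 with array weights (16.5%), and 12 without both arrays (6.93%). They numbered 0 by the methods' test (1.67%) and 1 with quantile normalization, for which no background was computed. Higher ones numbered 5 with array weights (9.11%), 1 with the replicate block (3.13%), and 1 without both arrays (3.61%). With array weights the background was 16.5% lower and 9.11% higher, and BTΔMAFF replicate 2 (weight 4.36) and BTWT replicate 3 (weight 4.68) held most of the weight. Whether mice of the same replicate number were handled together is not stated. Deviations of same-numbered mice had correlations of 0.39, -0.04, 0.03, and -0.27, too few values to settle it. The replicate block kept 2 lower members (background 2.97%). Of the values of single member probe sets under the alternatives, 268 kept direction and side of the threshold, 30 no longer passed, 12 newly passed, and 7 turned in sign, namely Cenpf 1452334_at with quantile normalization (0.0033) and with arrays centred (0.0018), Cenpe 1439040_at (-0.23 to 0.13 without single arrays), and Bub1b 1416961_at (-0.24 to 0.041). By the exact permutation test, added after the values were seen, the 3 member probe sets called by limma no longer passed and Nuf2 newly passed. The causes were not tested. With 4 mice in each group and no level or signal over background, differences in weak probe sets cannot be told from background.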
